A study of Drosophila melanogaster with 12 samples.

Results

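The arrays of dusk were compared with those of dawn in heads of adult fruit flies (Drosophila melanogaster) over a day of light and dark and the day of darkness that followed. Dusk was taken as hours 12 and 16 and dawn as hours 24 and 4, the hours at which textbook evening genes of the clock stand high and low. The choice by hour took 8 of the 12 arrays. The 4 dusk arrays were ZT12, ZT16, CT12 and CT16, and the 4 dawn arrays were ZT24, ZT4, CT24 and CT4. The other 4 arrays, at hours 8 and 20, were in neither group and entered a test only in an alternative fit over all 12 arrays.

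All flies were cn bw, a strain named for 2 recessive eye colour mutations, cinnabar and brown, so every group compared carried both. Before sampling at 4-hour intervals they had been kept on a cycle of 12 hours light and 12 hours dark. ZT counts hours from lights on during the light/dark day, and CT counts them from the time lights would have come on in constant darkness. Each array held RNA of pooled whole heads, a large pool per the labels, so brain, eye, fat body, muscle and cuticle-forming cells were measured together, and neither sex nor age is given in the sources used here.

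Several limits come with these groups. Each time point had 1 array, and the labels do not say that the arrays came from separate cultures of flies, so p-values measure only the spread between arrays. Hours 12 and 16 served as replicates of each other, as did hours 24 and 4, so any change within dusk or within dawn counted as spread. Since constant darkness always came second, the lack of light and the time elapsed cannot be told apart. In the light/dark day ZT4 fell in the light phase, ZT12 at its end, ZT16 in the dark phase and ZT24 at its end. Each hour thus had its own light exposure, so clock time and light exposure cannot be told apart there either. In the order of the hours, hour 4 opened each day and hour 24 closed it. The dawn arrays of a day were therefore its first and last, while its dusk arrays were neighbours. ZT24 was followed by CT4 of the dark day. In whole heads, fewer cells of a type and less RNA per cell cannot be told apart.

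The fly clock is a feedback loop of transcription. Clock and cycle proteins switch on period (per), timeless (tim), vrille (vri), Par-domain protein 1 (Pdp1) and clockwork orange (cwo) toward evening, and the period and timeless proteins later block Clock and cycle. Vrille represses and Pdp1 activates the Clk gene, whose transcript is known to run opposite to per and tim. Cryptochrome (cry) is the blue light receptor that leads to loss of timeless protein in light. In heads the loop runs in clock neurons of the brain, in photoreceptors, in glia and in fat body.

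One gene, vri, passed the test over both days, of 10844 genes (0.00922%), with limma's moderated test at an adjusted p of 0.05 (Benjamini-Hochberg). On the log2 scale of the deposited values, vri read 5.68 at ZT24, 5.43 at ZT4, 5.52 at CT24 and 5.33 at CT4. At dusk it read 6.78 at ZT12, 6.79 at ZT16, 6.66 at CT12 and 6.64 at CT16. Every dusk array stood above every dawn array, with a gap larger than the spread inside either group. The dusk mean was 6.72 ± 0.07 (SD, n = 4) and the dawn mean 5.49 ± 0.15 (SD, n = 4). The transcript rose by 1.23 ± 0.09 (SE) at dusk, a 2.34-fold difference with an adjusted p of 0.0054 in limma. The difference was 1.23 in the light/dark day and 1.23 in darkness, so the days differed by 0.01 ± 0.19 (SE). The arrays at hours 8 and 20 read between 5.67 and 6.12, below all 4 dusk arrays. Leaving out ZT12, ZT16 or CT16 ended the call, with adjusted p-values of 0.0759, 0.0627 and 0.0680 in limma, whereas leaving out any 1 of the other 5 arrays kept it, at 0.0221 to 0.0435. The difference stayed between 1.18 and 1.28 whichever array was left out. Pairing arrays 12 hours apart gave an adjusted p of 0.0502 at the same difference, and leaving out ZT16, ZT24 and CT4 together gave 0.4389. With all 12 arrays in the fit, hours 8 and 20 as groups of their own, the adjusted p was 2.270e-04.

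Next in size among the core clock genes was tim, whose protein pairs with period protein before it enters the nucleus. It read 5.57 at ZT24, 4.88 at ZT4, 5.64 at CT24 and 4.34 at CT4, against 6.40 at ZT12, 6.34 at ZT16, 6.08 at CT12 and 6.37 at CT16. All dusk arrays again stood above all dawn arrays, but the dawn arrays were spread widely, with hour 4 the lowest in each day. The difference was 1.19 ± 0.27 (SE), and it did not pass (adjusted p = 0.9988 in limma, unadjusted 0.0019). It was 1.15 in the light/dark day and 1.23 in darkness. A second probe set of tim gave a difference of 0.74 ± 0.16 (SE), with 0.64 and 0.85 in the 2 days, while the third, near the lowest levels of the arrays with a mean of 2.06, gave -0.0025. Outside the contrast tim read 6.07 at ZT8, 6.28 at ZT20, 4.67 at CT8 and 5.88 at CT20, so hour 20 was nearer to the dusk mean than to the dawn mean in each day. Leaving out 1 array at a time moved the difference of tim between 0.92 and 1.44.

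The other genes that Clock and cycle switch on had smaller differences. Pdp1 read 6.10, 5.25, 5.40 and 5.78 at ZT24, ZT4, CT24 and CT4, and 6.19, 6.07, 5.68 and 6.23 at ZT12, ZT16, CT12 and CT16. Its groups overlapped, with CT12 low for dusk and ZT24 high for dawn, and its difference of 0.41 ± 0.20 (SE) did not pass. It was 0.23 without ZT4 and 0.72 without ZT16, ZT24 and CT4. For per the dawn arrays read 5.32, 5.27, 5.13 and 5.49 in the same order, and the dusk arrays 5.71, 6.12, 5.28 and 5.45. In the light/dark day both dusk arrays of per stood above both dawn arrays, whereas in darkness the 4 arrays overlapped. The difference of per was 0.62 in the light/dark day and 0.06 in darkness, but the contrast of the days, -0.55 ± 0.26 (SE, darkness minus light/dark), did not pass. The repressor gene cwo differed by 0.12 ± 0.14 (SE), with 0.25 in the light/dark day and -0.01 in darkness, and by 0.0228 without ZT16.

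Clk, the activator gene of the second loop, lay the other way. It read 3.83, 3.94, 3.88 and 3.74 at ZT24, ZT4, CT24 and CT4, and 3.58, 3.70, 3.68 and 3.39 at ZT12, ZT16, CT12 and CT16. All 4 dusk arrays were below all 4 dawn arrays, at a level under the median gene (4.94). The difference was -0.26 ± 0.09 (SE), -0.24 in the light/dark day and -0.28 in darkness, and it did not pass. Its partner cyc, which textbooks give as constant over the day, differed by -0.06 ± 0.07 (SE). For cry, the dawn arrays read 6.82, 7.63, 7.91 and 6.63 and the dusk arrays 7.23, 6.74, 7.66 and 7.66. The groups of cry overlapped, and its difference of 0.07 ± 0.30 (SE) combined -0.25 in the light/dark day with 0.39 in darkness.

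Over the 8 core clock genes, 1 passed, 6 had the same sign in both days, vri and tim had all dusk arrays above dawn, and Clk had all below. Over all genes, 110 (1.01%) had all 4 dusk arrays above the 4 dawn arrays and 34 (0.314%) had all below. The median difference was 0.23 for the core clock genes and 0.02 for all genes.

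**Figure D1:**
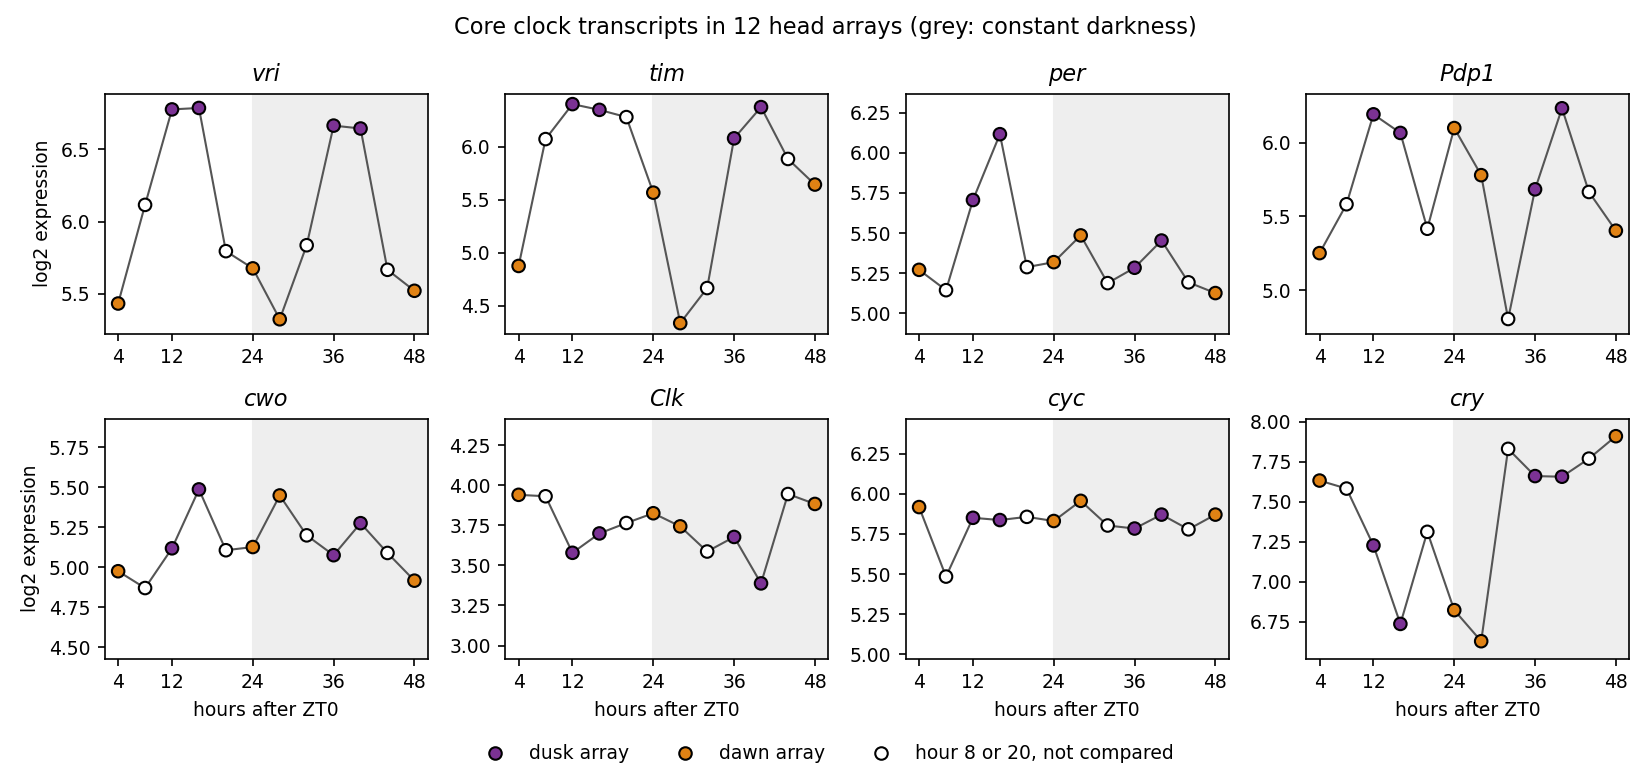
Deposited log2 values of the 8 core clock genes over the 12 arrays, by hours after the first lights on, with dusk and dawn arrays marked by colour and each panel on its own scale. In the vri panel the dusk arrays read 6.64 to 6.79 and the dawn arrays 5.33 to 5.68; in the cry panel the groups overlap.

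Without adjustment, 129 genes (1.19%) had a p under 0.05 with higher values at dusk and 72 (0.664%) with lower values. Even together these shares lie below 0.05, the share that such a threshold gives with no effect. The counts are therefore no surplus. The genes with the smallest p whose groups did not overlap and whose level was at or above the median gene are given here as values, since none but vri passed. BTBD9, a BTB-domain protein whose loss is known to disturb sleep in flies, read 5.55 to 5.77 at dawn and 5.90 to 6.01 at dusk, a difference of 0.29 ± 0.08 (SE), with 0.33 and 0.26 in the 2 days. The gene sw, which encodes the intermediate chain of cytoplasmic dynein, had a difference of 0.44 ± 0.14 (SE), and sty (sprouty), an inhibitor of receptor tyrosine kinase signalling, one of 0.30 ± 0.10 (SE). Rab3GAP1, named for its action on a small GTPase of vesicle traffic, had 0.25 ± 0.09 (SE), but its second probe set gave 0.02 ± 0.08 (SE). For sw and sty the dusk array CT12 barely cleared the highest dawn array. The largest differences after vri and tim among these 12 were those of CG9297 (0.70 ± 0.25, SE) and CG1648 (0.68 ± 0.25, SE). In both, the dawn array ZT24 stood apart: CG9297 read 7.12 there and 8.06 to 8.22 in its other dawn arrays, and CG1648 read 6.05 there and 7.11 to 7.28 in the others. Without ZT24 the differences were 0.44 for CG9297 and 0.40 for CG1648. A second probe set of CG9297, at a mean of 8.23, gave 0.28 ± 0.18 (SE). The remaining genes chosen by this rule, CG15646, CG46385, CG6712 and CG17782, differed by 0.20 to 0.51. The largest of these, CG46385, had a second probe set at 0.09 ± 0.08 (SE).

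On the dawn side, Dip-B, which encodes a dipeptidase, was the most even. It read 7.28, 7.40, 7.43 and 7.39 at ZT24, ZT4, CT24 and CT4, and 7.08, 7.02, 7.07 and 7.17 at ZT12, ZT16, CT12 and CT16. The difference was -0.29 ± 0.07 (SE), equal in both days to 2 decimals (-0.29 and -0.29). Asph, named for aspartyl beta-hydroxylase, differed by -0.46 ± 0.13 (SE), with -0.77 in the light/dark day and -0.15 in darkness, and its second probe set gave -0.33 ± 0.22 (SE). CG8031 had a difference of -0.32 ± 0.10 (SE) and CHKov1 one of -0.31 ± 0.12 (SE). The other 8 (CG2003, CG4511, CG1208, wun2, CG31688, CG17974, Wnk and CG4998) differed by -0.24 to -0.12. Other probe sets of CG31688 lay the other way, at 0.14 ± 0.15 (SE) and 0.12 ± 0.17 (SE). None of these 12 passed. Groups that do not overlap always give the same sign in both days, so that sign adds nothing here.

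**Figure D2:**
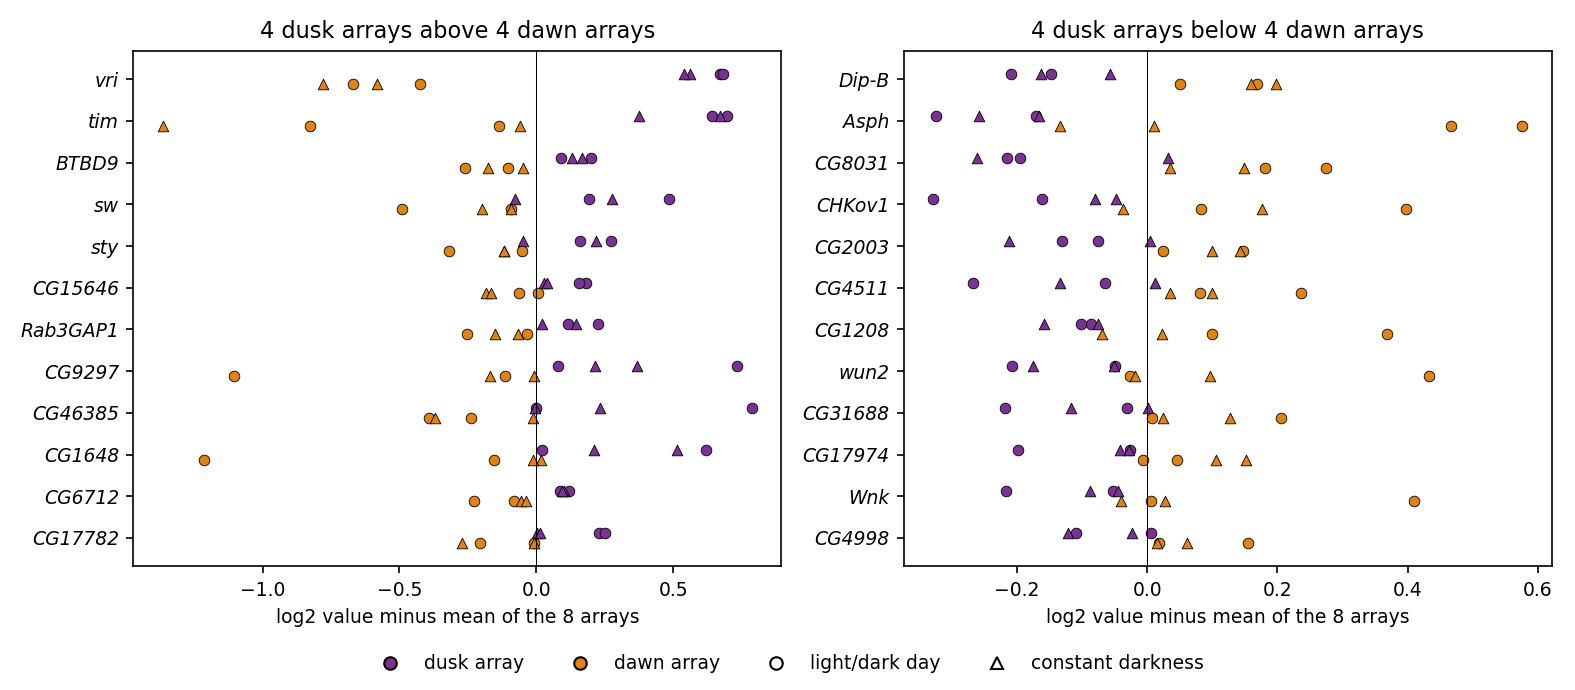
Values of the genes whose 4 dusk arrays all lay above or all below the 4 dawn arrays, chosen by the smallest p among genes at or above the median level. Each point is 1 array, placed by its log2 value minus the gene's mean over the 8 arrays, with dusk and dawn by colour and the days by shape. The gaps of vri and tim exceed those of genes such as BTBD9, which read 5.55 to 5.77 at dawn and 5.90 to 6.01 at dusk.

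The 6 genes whose 8 arrays ran most like vri, by Pearson's r, were tim (0.899), Cpr47Eg (0.892), CG6729 (0.871), TTLL1A (0.863), Mcm3 (0.853) and BTBD9 (0.853). The likeness is a description over 8 arrays that share the step between dusk and dawn.

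The days were then set apart. Within the day of light and dark, an unadjusted p under 0.05 was found for 317 genes (2.92%) with higher values at dusk and 199 (1.84%) with lower values. In darkness the counts were 15 (0.138%) and 16 (0.148%). Single arrays set these counts: without ZT16 the light/dark total went from 516 to 227, and without CT24 the darkness total went from 31 to 547. No gene passed after adjustment in either day, where limma's smallest adjusted p was 0.3635 and 0.3535. Differences were wider in the light/dark day: their SD over genes was 0.243 against 0.147 in darkness, and 4.66% of genes against 0.858% differed by 0.5 or more. In the light/dark day 58.6% of genes read higher at dusk, and in darkness 47.5% did.

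The sign of the difference agreed between the days for 5099 of the 10844 genes (47.0%) and was opposite for 5745. Of the 5099, 2879 were higher at dusk in both days and 2220 lower. Across genes, which are not independent replicates, the differences of the 2 days had a Pearson r of -0.083 and a Spearman rho of -0.069. The dusk and dawn arrays of one day are not shared with the other, so no array links these differences. The median SE of a difference in 1 day was 0.152, close to the SD of the differences in darkness.

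The agreement was then read over genes with larger differences. Of genes that differed by 0.5 or more in the light/dark day, 48.5% of 505 had the same sign in darkness, and at 1 or more 54.2% of 48 did. Of genes that differed by 0.5 or more in darkness, 28.0% of 93 had the same sign in the light/dark day. Among the 317 genes with an unadjusted p under 0.05 and higher values at dusk in the light/dark day, 51.1% had the same sign in darkness, and of the 199 with lower values 47.2% did. In the darkness selection the counts were 8 of 15 and 9 of 16.

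**Figure D3:**
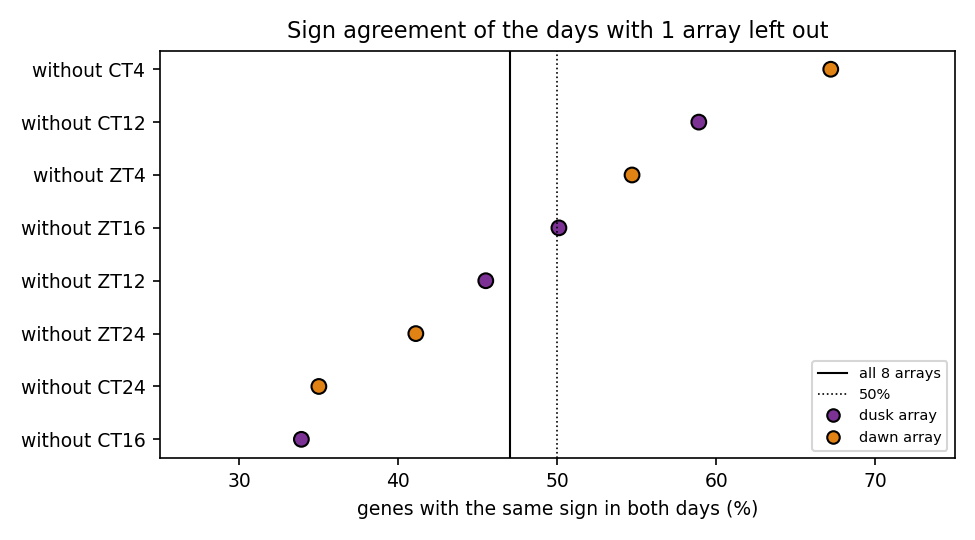
Percent of the genes with the same sign in both days (horizontal) with each of the 8 arrays left out in turn (points, dusk and dawn by colour), beside lines at the value from all 8 arrays and at 50%. The 8 arrays together gave 47.0%, and leaving out 1 array moved this from 33.9% (without CT16) to 67.2% (without CT4).

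The agreement turned on single arrays. It was 67.2% without CT4, 58.9% without CT12, 54.7% without ZT4, 50.1% without ZT16, 45.5% without ZT12, 41.1% without ZT24, 35.0% without CT24 and 33.9% without CT16. When each day was reduced to 1 dusk and 1 dawn hour, the agreement was 64.0% for hour 16 against hour 24, 50.4% for hour 12 against hour 24, 38.2% for hour 16 against hour 4 and 28.0% for hour 12 against hour 4. The pairs that used hour 4 gave the 2 lowest values. With genes cut by level into 10 bins of equal size, the 9 lower bins agreed in 46.2% to 49.9% of cases and the highest bin in 41.7%. In that bin the median difference was -0.16 in the light/dark day and 0.05 in darkness. This order turned with 1 array: without CT4 the highest bin agreed most, in 76% of cases, and the lowest bin least, in 58.5%.

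Array quality differed among the 8 arrays. The signal of control probe sets at the 3' end minus that at the 5' end, averaged over 3 control genes, was 3.32 at ZT24, 2.88 at CT4 and 2.57 at ZT16, and 1.70 to 2.13 at the other 5 arrays. A larger value means a weaker 5' signal. Its mean was lower at dusk than at dawn in both days, 2.35 against 2.58 in the light/dark day and 1.89 against 2.42 in darkness, so it ran with the contrast over both days; its part in that contrast was examined only by the covariate fit and by leaving arrays out. The SD of all values on an array was 1.55 to 1.58 at ZT12, ZT16, ZT24 and CT4 and 1.63 to 1.68 at ZT4, CT12, CT16 and CT24. With the 3'-5' signal as a covariate the agreement was 59.5%, and without ZT16, ZT24 and CT4 it was 65.0%. Normalizing the arrays again by quantiles left it at 47.6%.

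Only 12 genes (0.111%) differed by 0.5 or more in both days with the same sign, and 16 did so with opposite signs. These 28 were chosen after their values were seen and carry no test. Beside vri and tim, the genes higher at dusk in both days were Sirup, Mical, Rgk1, Usp8 and Vajk3. Sirup read 7.98, 8.17, 8.81 and 7.52 at ZT24, ZT4, CT24 and CT4, and 9.13, 8.73, 8.79 and 9.59 at ZT12, ZT16, CT12 and CT16. Only CT24 among its dawn arrays reached the dusk range. Mical, an enzyme that oxidises actin, had differences of 1.45 and 0.53 in the light/dark day and in darkness, and Rgk1, a small GTPase, of 0.86 and 0.53. For both, CT12 read like the dawn arrays (5.03 for Mical and 5.61 for Rgk1) while the other 3 dusk arrays stood above every dawn array. Mical had 4 probe sets, of which only the one with the highest mean is given here. Usp8, a deubiquitinase known to act on Clock protein, had 0.68 and 0.66.

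The genes lower at dusk in both days were Cds, CG12116, Cyp6a21, Jhbp13 and nes. Cyp6a21, a cytochrome P450, read 4.67, 3.87, 4.43 and 4.31 at ZT24, ZT4, CT24 and CT4, and 3.66, 3.83, 3.82 and 3.81 at ZT12, ZT16, CT12 and CT16. All dusk arrays lay below all dawn arrays, ZT4 by a small margin. Its difference was -0.54 ± 0.16 (SE), near equal in both days (-0.53 and -0.56). Jhbp13, of the juvenile hormone binding family by its name, had -0.96 and -0.58, and its dusk array CT12 (8.25) lay within the dawn range.

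All 16 genes of opposite sign were lower at dusk in the light/dark day and higher at dusk in darkness. They included the visual G-protein subunits Gbeta76C and Ggamma30A, the phototransduction channel trp, and the muscle genes Act79B, Tm2 and Argk1. The proteasome subunits Rpn3 and Rpt2 and the sugar genes Tps1 and Tret1-1 were also among them. So was t (tan), which frees histamine and dopamine from their conjugates. Gbeta76C read 7.73, 9.37, 9.50 and 7.51 at ZT24, ZT4, CT24 and CT4, and 8.13, 6.90, 9.68 and 9.37 at ZT12, ZT16, CT12 and CT16. It was high in the 4 arrays of wide value spread named above and low in the 4 of narrow spread, in dusk and dawn alike. All 16 genes had every wide array above every narrow one. So did 0 of the 12 genes of the same sign and 902 (8.32%) of all 10844 genes. The reverse order held for 0 of the 16, 0 of the 12 and 10.3% of all genes. The dusk side of that pattern follows from how the 16 were chosen, since both light/dark dusk arrays had a narrow spread and both dark ones a wide spread. The part of array quality in these opposite signs was not tested.

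**Figure D4:**
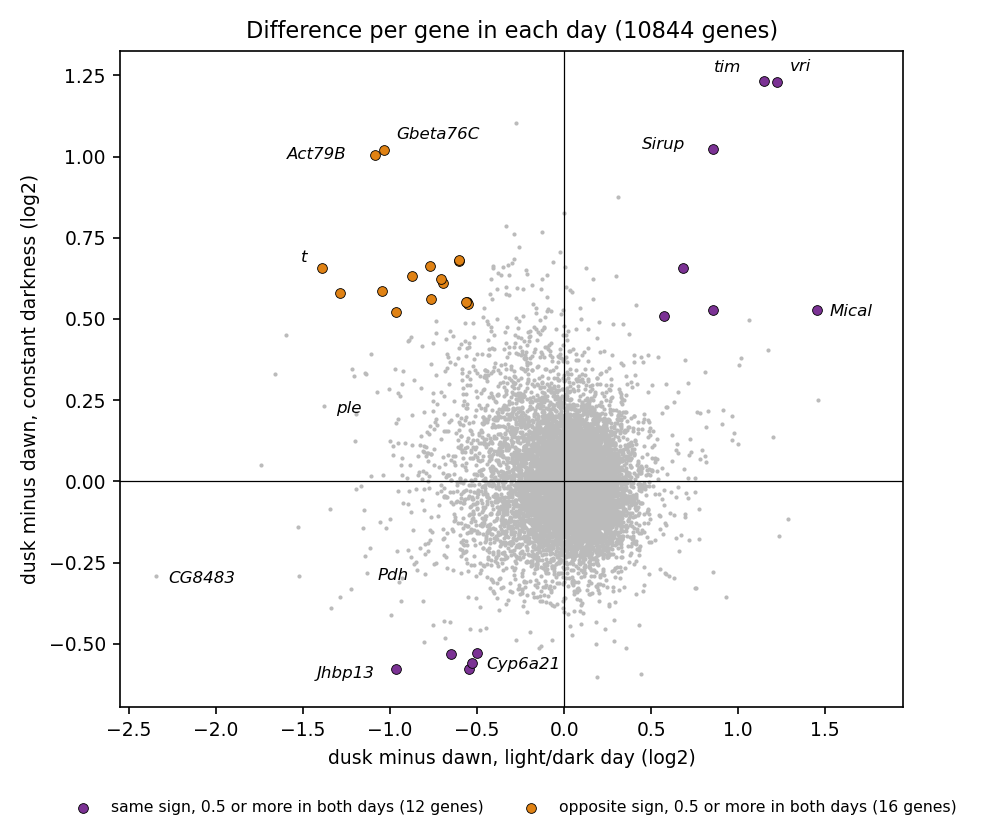
Dusk minus dawn difference (log2) of each of the 10844 genes for the light/dark day (horizontal) against constant darkness (vertical). The 12 genes at 0.5 or more with the same sign and the 16 with opposite signs are coloured; vri and tim lie at the upper right, and the 16 lie in the upper left field.

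The difference between the days was also tested gene by gene. None passed (limma's smallest adjusted p was 0.9656), and 198 genes (1.83%) had an unadjusted p under 0.05. The gene ple, which encodes tyrosine hydroxylase, the first enzyme of dopamine synthesis, read 8.12 and 8.80 at ZT24 and ZT4 and 7.17 and 6.99 at ZT12 and ZT16. In darkness it read 7.80 and 7.20 at CT24 and CT4 and 7.76 and 7.70 at CT12 and CT16. The 2 light/dark groups were far apart while the dark ones overlapped, and the contrast of the days was 1.61 ± 0.37 (SE). With the 3'-5' signal as a covariate, an alternative fit, the light/dark difference of ple was -1.49 ± 0.12 (SE) and passed, at an adjusted p of 0.0248 in limma. CG8483 stood at 8.69 and 8.66 in the light/dark dawn arrays and between 5.36 and 6.55 in the other 6, a contrast of 2.05 ± 0.50 (SE). Act79B, an actin of muscle, had -1.09 in the light/dark day and 1.005 in darkness. Its only probe set is of the family type by its suffix, so related actin genes may add to its signal. The catalytic subunit gene flw, of protein phosphatase 1, had -0.81 and 0.09, but a second probe set of flw gave -0.07 and 0.13. CG6330 had -0.79 and 0.11. In the other direction CG11710, RabGGTa, CG6683, Pgant7 and l(1)G0004 had the smallest p, led by CG11710 with a contrast of -0.65 ± 0.19 (SE).

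Gene groups were described by their counts and medians, for lists chosen with earlier results of these data known. Among genes reported as cycling in heads in earlier work, 14 of 17 were lower at dusk, as were 4744 of the 10844 genes in all. At an unadjusted p under 0.05, 4 of the 17 were lower and 1 higher, beside 0.664% and 1.19% of all genes, and 11 of 17 had the same sign in both days. Pdh, which encodes a retinol dehydrogenase of the eye, was among them. It read 9.72, 9.75, 9.54 and 9.54 at ZT24, ZT4, CT24 and CT4, and 8.54, 8.67, 9.59 and 8.92 at ZT12, ZT16, CT12 and CT16. The dusk arrays stood below the dawn arrays except for CT12, and the difference of -0.71 ± 0.20 (SE) was -1.13 in the light/dark day and -0.28 in darkness. CG10513 had -0.65 ± 0.22 (SE) and Ugt35B1, a UDP-glycosyltransferase, -0.70 ± 0.27 (SE). Among 19 kinases and modifiers of clock proteins, 12 were higher at dusk, a share near that of all genes (6100 of 10844). Usp8 had the smallest p of the 19, followed by the RNA-binding protein gene Fmr1 (0.81 in light/dark, 0.06 in darkness) and the phosphatase subunit wdb (0.71 and 0.01).

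Of the lists for cell types of the head, those for fat body, muscle, photoreceptors and haemocytes had medians of opposite sign in the 2 days. The haemocyte medians were small, -0.08 in the light/dark day and 0.03 in darkness. The glia list (-0.26 and -0.01) and the neuron list (0.04 and 0.09) kept their sign. The head fat body list (yolk proteins, storage proteins and odorant-binding proteins among them) had a median of -0.41 in the light/dark day and 0.26 in darkness, and 3 of its 17 genes had the same sign. The muscle list had -0.35 and 0.17, with 5 of 24 genes of the same sign, and the photoreceptor list -0.31 and 0.09, with 6 of 24. Of these genes, 13 of 17, 14 of 24 and 15 of 24 were lower at dusk in the light/dark day and higher in darkness. The medians for all genes were 0.04 and -0.01, and those of the highest of the 10 level bins were -0.16 and 0.05. The lists were not compared with genes of like level. Summed over its list, muscle level ranged from 13.10 to 13.76 at dusk and 13.02 to 13.85 at dawn, photoreceptor level from 12.70 to 13.66 and 13.10 to 13.60, and fat body level from 14.20 to 15.12 and 14.52 to 15.12. Over both days the groups overlapped for all 3. Within the light/dark day both dusk arrays were below both dawn arrays for each of the 3. The same held for glia (10.826 and 10.843 against 11.128 and 11.501) and, narrowly, for neurons (11.137 and 11.229 against 11.293 and 11.245). In darkness both dusk arrays were above both dawn arrays for muscle alone of the 3, and also for neurons. The part of these cell types in the results was not tested. The lowest gene mean in these lists, TpnC4 of muscle at 2.37, lay near the lowest levels of the arrays. Detection of every listed gene is therefore not shown. Arr2, the major arrestin of photoreceptors, read 10.31 to 11.25, so the eye marker of the labelled tissue was abundant.

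Inside these lists the genes with the smallest p were of both kinds. Ranking by the p over both days favours genes whose days agree. Arr2 had -0.60 in the light/dark day and 0.01 in darkness, the rhabdomere protein gene chp -0.96 and 0.12, and inaC, the eye protein kinase C, -0.80 and 0.09. In the fat body list Tsf1, a transferrin, kept its sign with 0.39 and 0.29, as did Cyp6a20 with -0.69 and -0.43. So did apolpp, the lipid carrier of the blood, with -0.60 and -0.06, the latter with an SE of 0.31. No other gene of that list kept its sign, and fit, the next by p, had -0.76 and 0.22. Among muscle genes Prm, paramyosin, kept its sign with 0.69 and 0.37, TpnC73F, a troponin C, with -0.39 and -0.24, and Zasp52 with 0.29 and 0.09, while Mlc1, a myosin light chain, had -0.79 and 0.08. None of these passed over both days.

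Metabolic lists were similar in part. The 12 glycolysis genes had medians of -0.07 and 0.33 in the 2 days, and 8 were higher at dusk over both. The 68 oxidative phosphorylation genes had -0.25 and 0.02, with 23 of the same sign, and the 39 proteasome genes -0.15 and 0.15, with 12. The cytosolic ribosomal list of 37 genes had -0.26 and -0.003, with 19. The mitochondrial ribosomal list had medians of -0.05 and -0.04, 45 of 64 genes lower at dusk and 46 (71.88%) of the same sign in both days. Of the UDP-glycosyltransferases 21 of 33 (63.64%) agreed, with medians of -0.05 in each day. Of the cytochrome P450 genes 42 of 81 agreed, and of the glutathione S-transferases 18 of 34, 24 of which were lower at dusk.

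Of all genes, 6100 of 10844 were higher at dusk over both days. Of 93 cuticle protein genes 74 were higher at dusk, with a median of 0.07, but the median was 0.14 in the light/dark day and -0.01 in darkness, and 38 agreed. Of 81 odorant and gustatory receptor genes 55 were higher, with 0.07 and -0.05. In the ovary list, of another tissue, 17 of 21 were higher, with medians of 0.19 and -0.05.

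**Figure D5:**
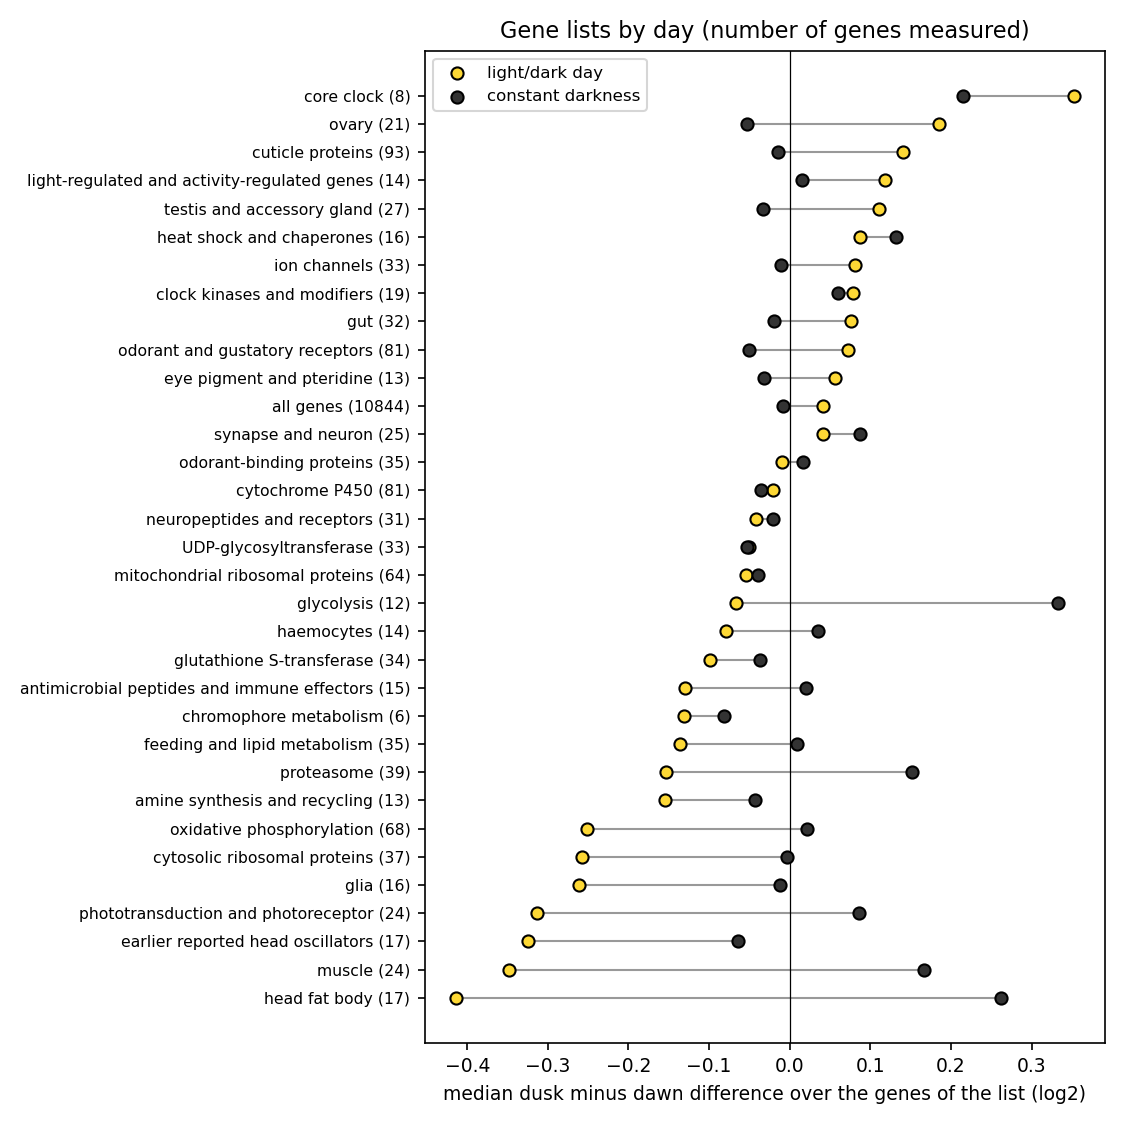
Median dusk minus dawn difference (log2) of each gene list, pale points for the light/dark day and dark points for constant darkness, with all genes for comparison. The head fat body, muscle and photoreceptor lists lie at -0.41, -0.35 and -0.31 in the light/dark day and at 0.26, 0.17 and 0.09 in darkness.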

How the data were processed

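The authors deposited RMA values, per the submitters' processing notes, for every probe set on each of 12 arrays; no version of RMA is stated. The deposited values were taken as log2 from their range, so the log base is inferred. Of 14010 probe sets, 44 controls served for quality only, and 13966 were tested. Names came from the platform annotation, updated through a RefSeq gene table (12394 matched); 12443 probe sets had 1 gene, 327 several and 1196 none here, and only those with 1 gene were named. Where a gene had several probe sets, the one with the largest mean over 12 arrays stood for it, giving 10844 genes. limma 3.58.1 in R 4.3.3 fitted a step between the days and the dusk minus dawn difference on 8 arrays (5 residual degrees of freedom). A second model gave each day's difference and their contrast. P-values are 2-sided and Benjamini-Hochberg adjusted over the tested probe sets. The procedure was tested on simulated data whose noise was independent between probe sets and arrays. The real arrays shared changes across genes, so that test does not show how such changes move the counts or the sign agreement. The number of arrays limits the precision: the median SE was 0.107.

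The arrays, lists and named genes were chosen with earlier results of these data known. Named genes were the 8 core clock genes, called genes, up to 12 genes per direction with the smallest p, groups apart and at least the median level, 5 per direction for the difference between the days, up to 4 per list, and the 6 most like vri. The cuticle list was corrected after the values were available, when chorion genes were found in it. No library or array was left out of the main results, and no sequence is printed.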

Additional observations from a re-analysis of the deposited data

Results flagged for a closer look

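Among the 40 named genes outside the lists, 80 groups of 4 arrays were searched for a single array far from the other 3. In all, 5 groups had one. Chance gives about 1 in 20 for 4 like draws. These groups mix hours and days, and many of the genes were chosen by their values, so that rate is only a rough guide. At dusk, tim read 6.077 at CT12 while the other 3 dusk arrays read 6.345 to 6.399. Also at dusk, CG17974 read 5.104 at ZT12 against 5.26 to 5.275. At dawn the array that stood apart was ZT24 in each of the 3 remaining cases. CG9297 read 7.124 there against 8.058 to 8.22, CG1648 read 6.05 against 7.111 to 7.281, and Wnk read 5.85 against 5.4 to 5.468. ZT24 also had the largest 3'-5' signal of the 8 arrays, 3.32, and its part in these values was not tested.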

How the results depend on the processing

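The count of genes passing over both days was 1, and 0 with arrays 12 hours apart as a block and without ZT16, ZT24 and CT4; leaving out 1 array at a time gave 0 to 1. In the light/dark day it was 0, and 2 with the 3'-5' signal as a covariate: ple (-1.49 ± 0.12, SE) and Zasp66 (-1.37 ± 0.12, SE), the latter named after its value was seen, each with an adjusted p of 0.0248 in limma. In darkness and for the contrast of the days it was 0 in limma under each setting run. Sign agreement was 59.5% with the covariate, 65.0% without ZT16, ZT24 and CT4, and 33.9% to 67.2% with 1 array left out. Genes at an unadjusted p under 0.05 numbered 201 over both days (96 without ZT24 to 913 without CT4), 516 in the light/dark day (227 without ZT16 to 1328 with the covariate), 31 in darkness (16 without ZT12 to 547 without CT24) and 198 for the contrast of the days (62 without CT4 to 1058 without CT24). Of 2778 single-gene values under 18 settings, 2757 kept their direction and side of the threshold, 5 of vri lost the call and 16 changed sign in 10 genes, none of which had passed; the cause was not tested. These were cry at -0.23 with the covariate, -0.32 without ZT16, ZT24 and CT4 and -0.2477 to 0.297 with 1 array left out; Act79B at 0.0028 after quantile normalization and -0.4117 to 0.3586 with 1 array left out; CG31688 at 0.0262 with the mean of its probe sets; and, without ZT16, ZT24 and CT4, Hdc at 0.0021, Dif at 0.0537, Nplp1 at -0.0090, Shaw at -0.0053, Syn at 0.0436, SPARC at -0.0469 and can at 0.045.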
